A study of Mus musculus with 16 samples.

Results

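Presynaptic vesicle release genes, here 40 protein-coding genes of 21887 in the RefSeq table used, were examined for gain of histone H3 lysine 9 beta-hydroxybutyrylation (H3K9bhb) in the cortex of fasted mice. The genes were taken as a named list of vesicle proteins, synaptotagmins and calcium effectors, SNARE proteins and their regulators, active zone scaffolds and endocytic proteins. The list was chosen with earlier results of these data known, so its counts are set beside background shares without a test. All 40 genes matched the gene table by symbol. C57BL/6J mice at postnatal day 35 that had been fasted for 48 h were set against C57BL/6J mice of the same age fed ad libitum. Chromatin from homogenate of the occipital cortex was immunoprecipitated with an H3K9bhb antibody and sequenced, with 4 immunoprecipitated and 4 input libraries for fasted mice and 4 and 4 for ad libitum fed mice. The data were the authors' list of 8404 regions enriched in fasted mice and their list of 1 region enriched in ad libitum fed mice, with a log likelihood ratio (log-LR) as each region's own value.

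The lists hold no value per library, and the depth is unknown. No spread between mice and no test between feeding states could be given. They record differences in a mark and no expression, and the labelled tissue could not be checked against marker genes. In a homogenate, more cells of a type and more of the mark per cell cannot be told apart. A gene without a region has no listed difference, which does not show that it lacks the mark.

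At a presynaptic terminal, neurotransmitter is stored in vesicles that dock at a protein scaffold called the active zone. The vesicle SNARE protein zippers with SNARE proteins of the plasma membrane, a synaptotagmin senses calcium and triggers fusion, and the vesicle membrane is then recovered by endocytosis. Lysine beta-hydroxybutyrylation of histones uses an acyl group derived from the ketone body beta-hydroxybutyrate, which rises in blood on fasting and is a fuel for neurons.

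Fasting-enriched regions were found at the ends of 14 of the 40 genes (35%), where an end means 1 kb either side of the first or last base of the annotated gene. Across all protein-coding genes the share was 11.9% (2609 of 21887). The 14 genes were Unc13a, Dnm1, Cplx2, Syt1, Napb, Cplx1, Snap91, Stxbp5, Bsn, Sv2a, Vamp2, Erc1, Rims1 and Rims2. Away from the ends, 3 of the 40 genes (7.5%) held a region in the gene body, namely Syn3, Synj1 and Syt7. With gene lengths pooled, this was close to the 7.24% of all protein-coding genes. Among genes over 100 kb, 1 of 16 members (6.25%) held a body region, against 30.1% of protein-coding genes of that length. At an end or in the body, 17 of the 40 genes (42.5%) held a region, against 18.1% of all protein-coding genes. The remaining 23 genes had none, and each of the 17 genes with a region had a single region. The ad libitum region lay at no member, and at 0% of all protein-coding genes.

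The log-LR at the 14 ends ran from 3.83 to 7.26, with a median of 5.11, against a median of 4.94 over the 2474 regions at protein-coding ends. Of the 14, 7 lay above that median and 5 above the upper quartile of 6.07. The highest ranked 267 of the 2474 regions, whose maximum was 88.06, so no member lay at the top of the range. None (0) of the member regions reached a log-LR of 10, a level passed by 1.66% of regions at protein-coding ends.

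**Figure D1:**
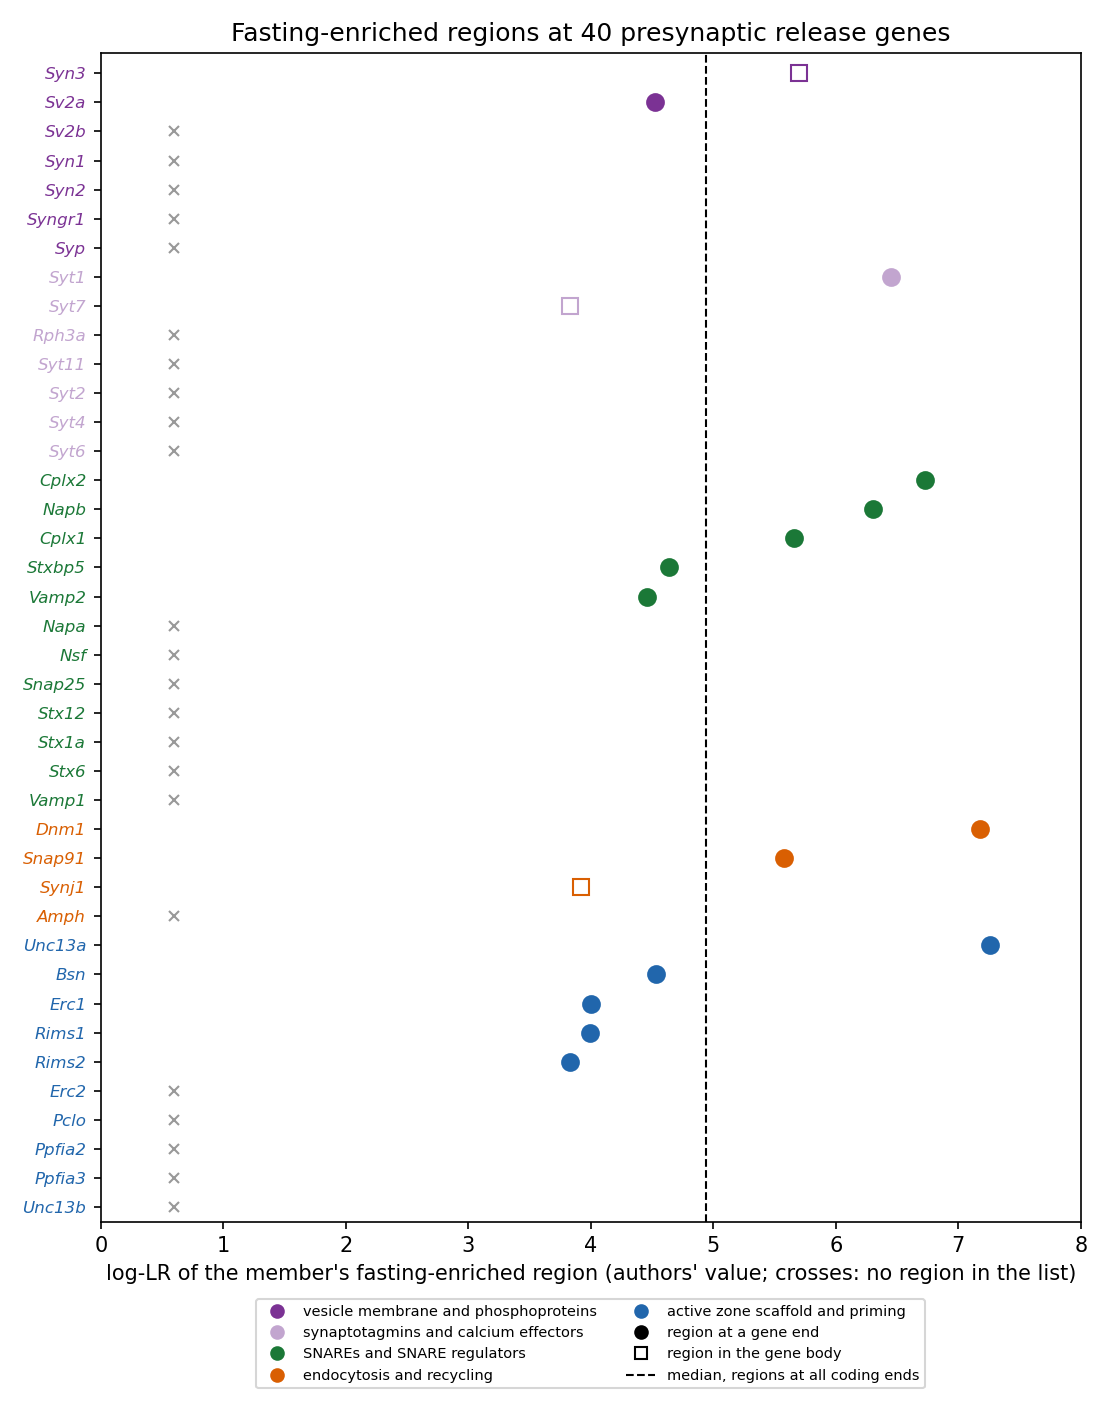
log-LR of the fasting-enriched region at each of the 40 genes, grouped by role; filled circles are regions at a gene end, open squares regions in the gene body, crosses genes with no listed region, and the dashed line the median of 4.94 over regions at all protein-coding ends. Unc13a, Dnm1 and Cplx2 have the highest values, and the regions of active zone genes other than Unc13a lie below the line.

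The regions sat on the start side of the genes. Strand and start positions were available for 12 of the 14 genes from the RefSeq promoter table, and in 12 of 12 the region lay at the start and not at the far end. Over all protein-coding genes with a start in the table, 94.2% of the 2295 gene and region pairs lay on the start side. In 11 of the 12 genes the centre of the region lay downstream of the nearest annotated start, inside the transcribed unit. The median distance from the start to the centre was 335 bp into the gene, with quartiles of 204 and 463 bp. For all protein-coding genes 75.2% of start-side regions lay downstream, with a median distance of 235 bp and quartiles of 6 and 391 bp. Placement just inside the start was thus shared by release genes and the list as a whole, and the difference in medians was not tested. Vamp2 and Rims2 have no entry in the promoter table.

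**Figure D2:**
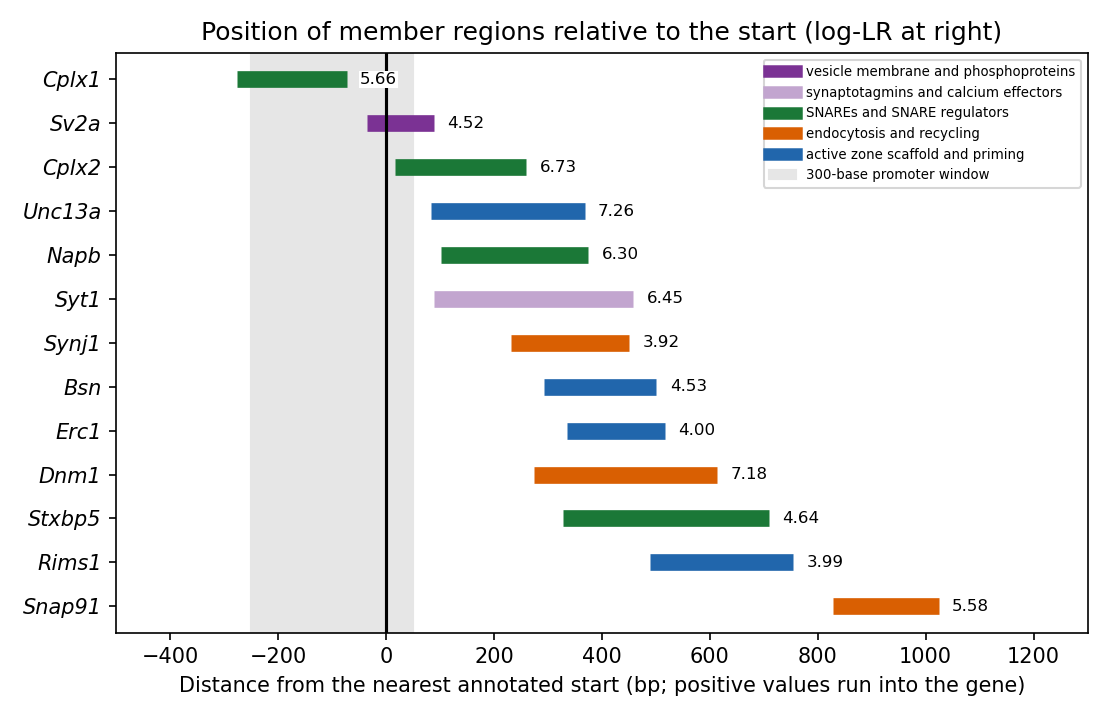
Extent of each member's region in bp from its nearest annotated start, drawn to scale along the direction of transcription, with the log-LR at the right and the 300-base promoter window shaded; bar colour gives the role. The Cplx1 region lies wholly upstream, the Sv2a region crosses the start, and the other 11 regions, Synj1 included, lie inside the gene.

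**Figure D3:**
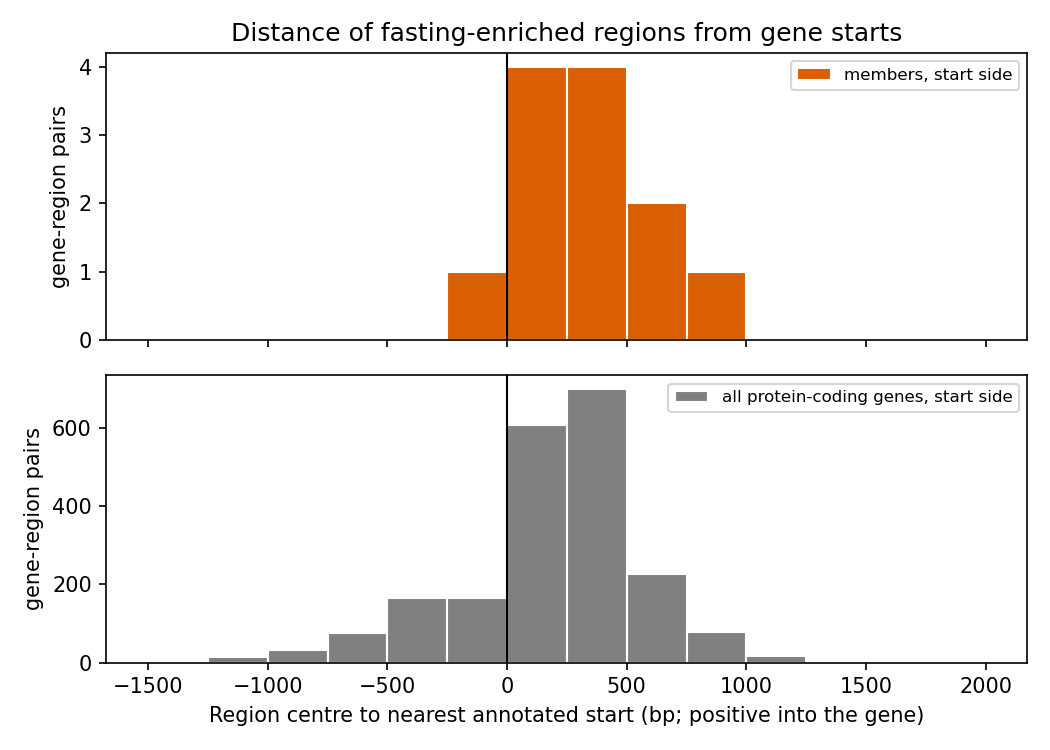
Number of gene and region pairs on the start side in 250 bp classes of distance from the region centre to the nearest annotated start, for the 12 release genes (top) and all protein-coding genes (bottom). In both panels most centres lie between the start and 500 bp into the gene, where 8 of the 12 release genes are found.

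The promoters of the genes with the highest log-LR are shown because the gained regions overlap them (Cplx1, Cplx2 and Sv2a) or lie downstream of them without overlap (Unc13a, Dnm1, Syt1 and Napb). Each is the RefSeq sequence of build GRCm38.p6 from 250 bases before to 50 bases after the start nearest to the region, written along the gene's strand. Capitals mark the GC box GGGCGG or its reverse CCGCCC, a motif that transcription factors of the Sp and Klf families bind. The first 6 promoters belong to the 6 genes of highest log-LR with an entry, and that of Sv2a was added after the values were seen, because its region overlaps the promoter.
Unc13a: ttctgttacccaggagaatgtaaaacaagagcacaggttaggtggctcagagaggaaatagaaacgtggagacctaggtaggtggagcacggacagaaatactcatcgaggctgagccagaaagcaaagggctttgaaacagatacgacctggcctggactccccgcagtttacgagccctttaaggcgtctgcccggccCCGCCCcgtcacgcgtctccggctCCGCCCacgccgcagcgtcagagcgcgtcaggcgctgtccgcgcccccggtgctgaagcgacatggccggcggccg
Dnm1: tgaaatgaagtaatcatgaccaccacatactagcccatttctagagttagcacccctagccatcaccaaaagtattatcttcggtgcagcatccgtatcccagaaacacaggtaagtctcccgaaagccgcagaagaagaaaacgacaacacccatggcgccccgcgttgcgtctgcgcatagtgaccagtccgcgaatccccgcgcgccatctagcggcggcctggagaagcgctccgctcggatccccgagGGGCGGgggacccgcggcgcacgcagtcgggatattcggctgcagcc
Cplx2: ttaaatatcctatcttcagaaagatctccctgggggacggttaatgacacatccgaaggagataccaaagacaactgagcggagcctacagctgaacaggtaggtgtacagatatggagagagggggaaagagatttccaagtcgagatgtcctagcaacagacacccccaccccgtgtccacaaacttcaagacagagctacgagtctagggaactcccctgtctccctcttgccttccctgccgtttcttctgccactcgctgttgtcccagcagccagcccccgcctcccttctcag
Syt1: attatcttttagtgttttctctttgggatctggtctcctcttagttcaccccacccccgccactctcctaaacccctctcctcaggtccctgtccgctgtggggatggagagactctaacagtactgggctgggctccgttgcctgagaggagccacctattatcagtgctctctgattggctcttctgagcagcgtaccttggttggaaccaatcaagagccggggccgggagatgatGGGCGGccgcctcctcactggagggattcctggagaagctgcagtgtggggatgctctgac
Napb: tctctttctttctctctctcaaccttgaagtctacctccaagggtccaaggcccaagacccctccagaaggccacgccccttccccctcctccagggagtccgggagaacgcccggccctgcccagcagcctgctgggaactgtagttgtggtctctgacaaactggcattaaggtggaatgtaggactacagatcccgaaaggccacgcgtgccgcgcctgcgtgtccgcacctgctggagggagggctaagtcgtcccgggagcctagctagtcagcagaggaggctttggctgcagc
Cplx1: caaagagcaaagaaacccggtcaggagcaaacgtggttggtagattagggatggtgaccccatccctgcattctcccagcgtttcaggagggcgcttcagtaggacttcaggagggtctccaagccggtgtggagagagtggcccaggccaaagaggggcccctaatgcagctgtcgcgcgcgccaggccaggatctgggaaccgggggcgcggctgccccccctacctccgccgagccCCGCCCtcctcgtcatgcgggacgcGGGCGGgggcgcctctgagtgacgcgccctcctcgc
Sv2a: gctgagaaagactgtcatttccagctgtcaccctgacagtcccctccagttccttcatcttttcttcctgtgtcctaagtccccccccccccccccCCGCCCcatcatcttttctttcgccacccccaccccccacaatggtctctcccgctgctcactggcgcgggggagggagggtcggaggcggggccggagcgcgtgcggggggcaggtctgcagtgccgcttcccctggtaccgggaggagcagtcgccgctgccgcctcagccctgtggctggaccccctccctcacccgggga
In mm10 (GRCm38.p6) coordinates these are chr8:71671708-71672007 on the minus strand for Unc13a, chr2:32353280-32353579 on the minus strand for Dnm1 and chr13:54302306-54302605 on the plus strand for Cplx2. Syt1 is at chr10:109010926-109011225, Napb at chr2:148732371-148732670 and Cplx1 at chr5:108549978-108550277, all on the minus strand, and Sv2a is at chr3:96180977-96181276 on the plus strand. The gained region overlapped 178 bases of the Cplx1 promoter (bases 1 to 178 as printed), 86 bases of the Sv2a promoter (bases 215 to 300) and 34 bases of the Cplx2 promoter (bases 267 to 300). In all, 3 of the 34 members with a promoter entry (8.82%) had a region overlapping the 300 bases, against 3.53% of 17492 protein-coding genes with an entry. For a window of 1 kb either side of any annotated start the count was 13 of 34 (38.2%), against 13.2%.

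Among the active zone genes, which organise the site where vesicles dock and become ready to fuse, 5 of 10 had a region at an end (50%). The share over all protein-coding genes was 11.9%. Unc13a, which encodes the priming factor Munc13-1, had the highest log-LR of the 40 genes. Its region spanned 285 bp at chr8:71671389-71671673, from 84 to 368 bp after the start, with a log-LR of 7.26 that ranked 267 of the 2474 regions at protein-coding ends. Unc13b, which encodes the related primer Munc13-2, had no region, and the nearest lay 36.7 kb from the gene. The region of Bsn, the gene for the large scaffold protein Bassoon, was 210 bp wide at chr9:108189882-108190091, 292 to 501 bp after the start, with a log-LR of 4.53. Pclo, the gene for the related scaffold Piccolo, had none, and the nearest lay 144 kb away.

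Both Rims genes, whose products link vesicle-bound Rab3 to calcium channels and Munc13, had a region of low log-LR. The Rims1 region, at chr1:22805403-22805669, lay 489 to 755 bp after the start with a log-LR of 3.99. The Rims2 region, at chr15:39198436-39198572, began 150 bp inside the lower-numbered end of the gene and had a log-LR of 3.83, the lowest value at an end among the members. Erc1 encodes the scaffold protein ELKS, and its region at chr6:119847633-119847815 had a log-LR of 4.0 and lay 335 to 517 bp after the start. That region was also within 1 kb of an end of the long non-coding RNA gene 3110021A11Rik. Erc2, the paralog that encodes CAST, had none, with the nearest 142 kb away, although at 856.3 kb it was the longest of the 40 genes. Ppfia2 and Ppfia3, which encode liprin-alpha scaffold proteins, had none either, and the nearest region to Ppfia3 was 5.32 kb away.

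Of the SNARE genes and their regulators, 5 of 12 had a region at an end (41.7%, against 11.9% of all protein-coding genes). Of these 5, 4 encode regulators or disassembly factors, namely Cplx1, Cplx2, Napb and Stxbp5. Napa and Nsf encode disassembly factors too and had no region, and this split was not tested. Both complexin genes, whose small proteins clamp and promote SNARE-driven fusion, had a region at an end. The Cplx2 region at chr13:54302572-54302816 had a log-LR of 6.73, rank 381, and began 16 bp after its nearest start; it also overlapped the long non-coding RNA gene LOC115488208. The Cplx1 region at chr5:108550100-108550304 had a log-LR of 5.66, rank 780. It was the only one of the 14 that lay wholly outside its gene, from 277 to 73 bp before the start, and it overlapped no other annotated gene.

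Napb, which encodes beta-SNAP, an adaptor that brings the ATPase NSF to spent SNARE complexes, had a region at chr2:148732045-148732318 with a log-LR of 6.30, 102 to 375 bp after the start. Neither Napa, the gene for alpha-SNAP, nor Nsf had a region, and the nearest lay 50.8 kb and 13 kb away. Stxbp5 encodes tomosyn, a protein that binds target-membrane SNAREs and restrains release. Its region at chr10:9900331-9900712 was 382 bp wide, with a log-LR of 4.64, and lay within 1 kb of an end of the long non-coding RNA gene Gm46210.

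Of the neuronal SNARE genes themselves, Vamp2, the gene for the vesicle SNARE synaptobrevin-2, had a region and Snap25, Stx1a and Vamp1 did not. The Vamp2 region was the widest among the members at 471 bp, at chr11:69088629-69089099, and began 101 bp inside the lower-numbered end of the gene, with a log-LR of 4.46. Snap25, the gene for a plasma membrane SNARE, was the member farthest from any region, at 1030 kb. The nearest region to Stx1a, which encodes the plasma membrane SNARE syntaxin-1A, was 26.7 kb away. The genes for the endosomal syntaxins Stx6 and Stx12 had no region.

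The genes of the synaptotagmin and calcium effector group differed among themselves. Syt1, which encodes the calcium sensor of fast synchronous release in forebrain neurons, had a region of 370 bp at chr10:109010517-109010886 with a log-LR of 6.45, rank 459, from 89 to 458 bp after the start. It was the only 1 of the 7 genes in the synaptotagmin and calcium effector group with a region at an end (14.3%, against 11.9% of all protein-coding genes). The Syt7 region, at chr19:10389815-10389952 with a log-LR of 3.83, was counted in the gene body because it lay 13 bp beyond the 1 kb window. Syt7 encodes a sensor of slower calcium signals. Syt2, Syt4, Syt6, Syt11 and Rph3a, the gene for the Rab3 effector rabphilin, had no region, with gaps to the nearest of 58.7 to 312 kb.

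Vesicle membrane proteins and synapsins, which tether vesicles in the reserve pool, had a region at an end in 1 of 7 genes (14.3%, against 11.9% of all protein-coding genes). Sv2a, the gene for a vesicle glycoprotein that is the binding site of the antiepileptic drug levetiracetam, had the narrowest region of the members, 126 bp at chr3:96181191-96181316, which crossed the start and had a log-LR of 4.52. Syn3 held a region deep in its 450.2 kb body, at chr10:86234947-86235218, with a log-LR of 5.70, 186201 bp from the lower-numbered end of the gene. Syn1, Syn2, Sv2b, Syngr1 and Syp had no region. Syn1 and Syp, the synaptophysin gene, lie on chromosome X, and without these 2 genes the count at ends was 14 of 38 (36.8%), against 12.6% of autosomal protein-coding genes.

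Among the 4 genes of endocytosis and recycling, Dnm1 and Snap91 had a region at an end (50%, against 11.9% of all protein-coding genes). Synj1 had a region in the body (25%, against 7.24%). Dnm1, the gene for the GTPase dynamin-1 that pinches off endocytic vesicles, had the second highest log-LR of the 40 genes, 7.18, in a region of 341 bp at chr2:32352715-32353055, 274 to 614 bp after the start. Snap91 encodes AP180, a clathrin assembly protein, and its region at chr9:86879684-86879880 had a log-LR of 5.58. With its near edge 828 bp after the start it was the most distant of the 12 from a start. The Synj1 region, at chr16:91010645-91010863 with a log-LR of 3.92, lay 2864 bp inside the start-side boundary of the gene as annotated. It was 232 to 450 bp after another annotated start of Synj1, and within 1 kb of an end of the long non-coding RNA gene 4930404I05Rik. Synj1 encodes synaptojanin-1, a phosphoinositide phosphatase of vesicle uncoating. Amph, the amphiphysin gene, had no region, and the nearest was 10.7 kb away.

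Of these 5 roles, the counts at ends were 5 of 10 for the active zone, 5 of 12 for SNAREs and their regulators and 2 of 4 for endocytosis. They were 1 of 7 for vesicle membrane proteins and 1 of 7 for synaptotagmins and calcium effectors (14.3% each). Over all protein-coding genes the share was 11.9%, which is near the 14.3%. The roles hold 4 to 12 genes each, and differences between roles or between paralog families were not tested. Where the list holds 2 paralogs, both had a region at an end for Cplx and Rims, 1 of 2 did for Unc13, Erc, Sv2, Vamp and Nap, and 0 of 2 for Ppfia. In larger families the counts were 0 of 3 for Syn and 1 of 6 for Syt, and the syntaxin genes Stx1a, Stx6 and Stx12 had no region. The 23 genes without a region were a median of 128 kb from the nearest. At the edges of the window rule, Snap91 was the member nearest to falling out, with its region 854 bp inside the gene end, and Syt7 was the nearest left out.

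Release genes are long, with a median length of 70.0 kb against 17.2 kb for all protein-coding genes, and long genes have more room for a region in the body. By length, 2 of 6 members under 20 kb had a region at an end (33.3%, against 9.01% of protein-coding genes of that length), 6 of 18 of 20 to 100 kb (33.3%, against 15.0%) and 6 of 16 over 100 kb (37.5%, against 16.5%). In gene bodies, 0 of 6 members under 20 kb and 2 of 18 of 20 to 100 kb held a region, against 1.81% and 8.42% of protein-coding genes of those lengths. Of the 16 members over 100 kb, 1 held a body region (6.25%), against 30.1% of the 2429 protein-coding genes of that length. Body regions numbered 0.193 per Mb in members over 100 kb, against 1.85 per Mb in all protein-coding genes of that length, and 0.484 per Mb over the 40 members, against 2.1 per Mb over all protein-coding genes.

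Other genes of the release machinery, 83 in a companion list, had a region at an end in 17 (20.5%, against 11.9% of all protein-coding genes) and in the body in 11 (13.3%, against 7.24%). The 6 of highest log-LR at an end were Ap2m1, a clathrin adaptor subunit gene (6.67), Stx2, a syntaxin gene (6.5), Rab3a, the gene for the main Rab GTPase of synaptic vesicles (6.18), Syt12, a synaptotagmin gene (5.85), Cacna1b, the gene for the N-type calcium channel of terminals (5.82), and Dnm3, a dynamin gene (5.73). Of the 14 with a start in the promoter table, 14 had their highest region centred within 1 kb of a start and 13 of them downstream of it, as in the members.

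Glutamate and GABA receptor and scaffold genes, 52 in all, had their regions in the gene body more than at ends. Most of their products act on the receiving side of the synapse, and some of the receptors also act on terminals. A region at an end was present in 10 (19.2%, against 11.9% of all protein-coding genes) and a region in the body in 21 (40.4%, against 7.24%). These genes are long, with a median of 197 kb. Among genes over 100 kb, 1 of 16 release genes and 15 of 33 receptor and scaffold genes (45.5%) held a body region, against 30.1% of all protein-coding genes of that length. Body regions numbered 0.484 per Mb in the release genes, against 2.1 per Mb over all protein-coding genes. The receptor and scaffold genes had 2.34 per Mb, near that background when all lengths were pooled. Those over 100 kb had 2.01 per Mb, against 1.85 per Mb in all protein-coding genes of that length. Of the receptor and scaffold genes of 20 to 100 kb, 6 of 15 held a body region, against 8.42% of protein-coding genes of that length. These 15 genes had 8.01 body regions per Mb, so the pooled value did not hold in each length class. The highest values at an end were those of Grin1 (9.18, a region also at an end of Lrrc26), Grik5 (6.56), Gabbr2 (5.56), Grik4 (5.50), Grm7 (4.97) and Grm3 (4.83), all of them receptor genes. Of the 10 genes, 6 had their highest region centred within 1 kb of a start in the promoter table. Centres for Dlgap4 and Dlgap3 were at -106911 and -3551 bp, before the nearest start in that table. As both regions also lay within 1 kb of a gene end, these genes have an end that the table's starts do not cover. Centres for Grin1 and Grik5 were at 28902 and 61742 bp, after the nearest start. These differences between lists were not tested, because the lists were chosen with results of these data known.

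**Figure D4:**
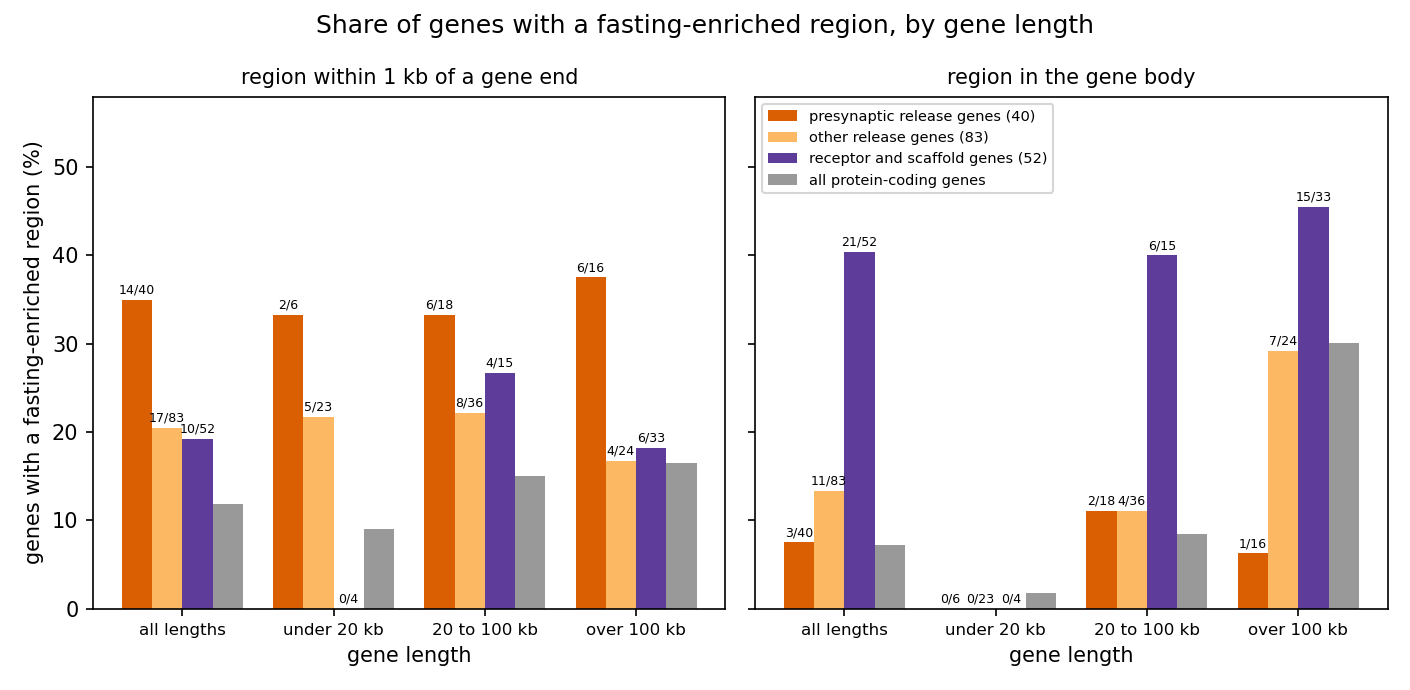
Percentage of genes with a fasting-enriched region within 1 kb of an end (left) and in the gene body (right), by gene length, for the 40 release genes, 83 other release genes, 52 receptor and scaffold genes and all protein-coding genes; counts stand above the bars of the lists. Release genes over 100 kb show 37.5% at ends and 6.25% in bodies, and receptor and scaffold genes of that length 18.2% and 45.5%.

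Base composition of the promoters moved with the calls across the genome. Of 34 members with a promoter entry, 27 (79.4%) had a CpG-rich promoter, defined as a GC content of at least 50% and an observed over expected CpG ratio of at least 0.6, against 45.8% of all protein-coding genes with an entry. Among CpG-rich promoters the background at ends was 21.0% of all protein-coding genes, and 8 of the 27 members did (29.6%), which is nearer to the background than the share over all genes. Among the other promoters the background was 4.55%, and 4 of 7 members did, namely Syt1, Napb, Sv2a and Cplx2. The part of base composition in the members' share was not tested.

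Within the members, the promoters of genes with and without a region at an end overlapped in CpG content. The 12 members with a region at an end and a promoter entry had a median GC content of 67.5% and a CpG ratio of 0.82. The 22 without a region at an end had 64.5% and 0.75. The CpG-rich share went the other way, with 8 of the 12 (66.7%) against 19 of the 22 (86.4%). It was 79.6% over all protein-coding genes with a region at an end and an entry, and these differences were not tested. The CpG ratio ran from 0.33 in Syt1 to 1.12 in Erc1 with a region at an end, and from 0.38 in Rph3a to 1.14 in Nsf without. A GC box was present in 9 of the 12 promoters with a region at the end (75%) and in 17 of the 22 others (77.3%), against 46.3% of all protein-coding genes with an entry. It was therefore common in both sets of members. The CRE half-site TGACG was present in 3 of 12 and 6 of 22, against 23.8%, and the Unc13a promoter held 3 copies. The TATA box TATAAA was in 0 of 12 and 1 of 22, against 13.3%, and the CCAAT box, whose letters are CCAAT, in 1 of 12 and 7 of 22, against 39.2%. The E-box CACGTG was in 0 of 12 and 5 of 22, against 7.91%, and the NRF1 half-site TGCGCA in 3 of 12 and 5 of 22, against 10.1%. Among all protein-coding genes with an entry and a region at an end, 70.4% held a GC box and 35.6% a CRE half-site. For the TATA box, CCAAT box, E-box and NRF1 half-site the shares in those genes were 5.96%, 35.4%, 10.1% and 16.4%. In all 32851 promoters of the table, which are of the same length, the shares were 35.7% for the GC box, 20.8% for the CRE half-site, 13.6% for the TATA box, 37.4% for the CCAAT box, 7.15% for the E-box and 7.76% for the NRF1 half-site. Each of the 6 motifs was read on both strands, matches of different motifs may share bases, and a match is a description of the sequence only.

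**Figure D5:**
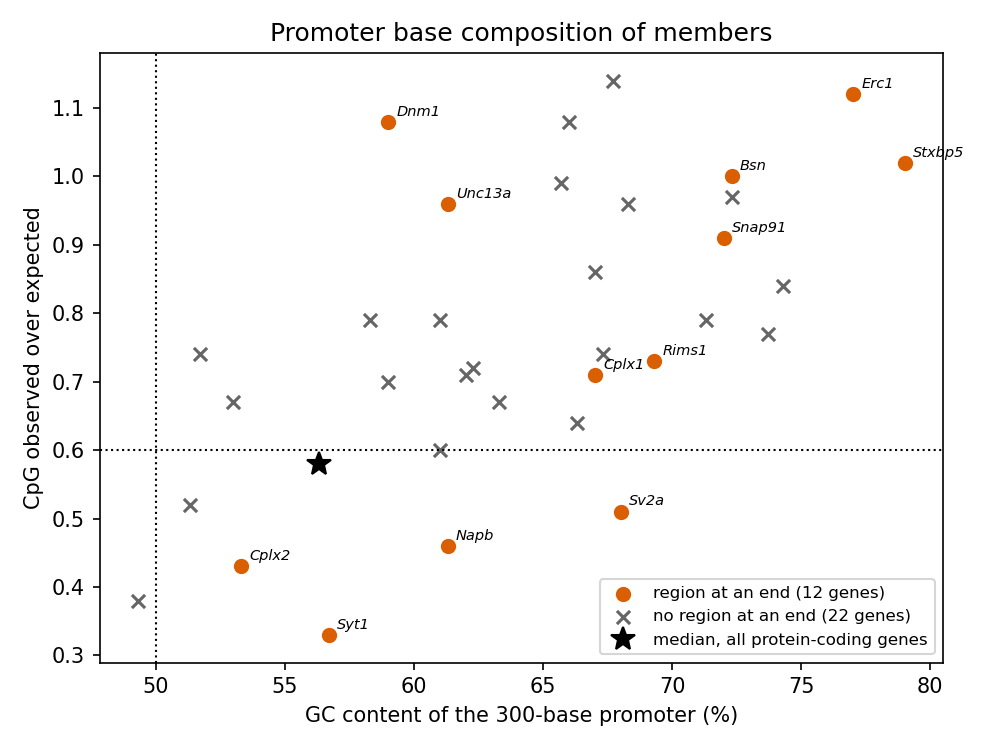
GC content in % against observed over expected CpG in the 300-base promoter of the 34 members with an entry; orange circles have a fasting-enriched region at an end, crosses do not, the star is the median of all protein-coding genes (56.3%, 0.58), and the dotted lines mark the CpG-rich limits. Members with and without a region lie in the same range, and of the 7 members outside the CpG-rich limits 4 have a region at an end (Syt1, Cplx2, Napb and Sv2a) and 3 do not.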

How the data were processed

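H3K9bhb chromatin immunoprecipitation libraries and inputs from fasted and ad libitum fed mice underlie 2 deposited region lists, which per the file headers give a position, a name and a log-LR per region. The authors' log-LR is used as a score for each region; the sources used here give no log base, cutoff, depth scaling or pooling of libraries for it. The submitters' processing notes name Bowtie2, MACS2 and the build mm10, with no version. Depth is unknown, and a difference in depth or immunoprecipitation yield between groups would move the lists.

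Starts were read as counted from 0 and are given from 1. Genes, starts and promoters came from RefSeq tables of GRCm38.p6, the build called mm10, on chromosomes 1 to 19, X and Y. A region counted at an end if it overlapped the 1 kb either side of it by at least 1 bp, and in the body if it overlapped the gene and neither end window. One promoter per gene, the farthest upstream, gave base composition, while distances used the start nearest to the region. Counts were set beside the share of all protein-coding genes, with no test over the lists, since members and lists were chosen with earlier results of these data known. The rule for named genes took all members, up to 6 of highest log-LR at an end in each companion list and 6 promoters. The count step was checked on planted regions. Alternatives were windows of 500 bp and 3 kb, centre overlap, a log-LR of at least 5, merging within 1 kb and leaving out shared regions, with autosomal genes, CpG-rich promoters, body counts including ends and genes over 100 kb added after seeing the data. Python 3.11.15, numpy 2.4.6, pandas 2.3.3 and matplotlib 3.10.9 were used.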

Additional observations from a re-analysis of the deposited data

How the results depend on the processing

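Of 50 alternative values, 34 stayed within 1.5 times the reported count, or within 1 SD of the reported log-LR, and 16 moved. At a log-LR of at least 5 the members with a region at an end numbered 7 (17.5%, against 5.90% of all protein-coding genes). In the body they numbered 1 (2.5%, against 4.13%) and anywhere 8 (20%, against 9.71%). The members' median log-LR at ends was then 6.45, against 6.13 over all regions at protein-coding ends with that limit. Other release genes numbered 10 at ends (12%, against 5.90%) and 5 in bodies (6.02%, against 4.13%). Receptor and scaffold genes numbered 4 at ends (7.69%, against 5.90%) and 12 in bodies (23.1%, against 4.13%). This limit keeps fewer regions by construction. Within CpG-rich promoters, 8 members had a region at an end (29.6%, against 21.0%). Body counts in members were 6 with a window of 500 bp (15%, against 9.17%), 1 with 3 kb (2.5%, against 5.58%), 16 with regions at ends counted too (40%, against 16.4%) and 1 among genes over 100 kb (6.25%, against 30.1%), so the members' share in bodies lay above or below the background depending on the setting. Receptor and scaffold genes at ends numbered 6 with 500 bp (11.5%, against 9.55%) and 16 with 3 kb (30.8%, against 14.7%). With 1 kb around a start in place of the 300-base promoter, 13 members had a region (38.2%, against 13.2%). The members' count at ends was 11 with 500 bp (27.5%, against 9.55%) and 16 with 3 kb (against 14.7%), and it was 14 with centres, merged regions, shared regions left out or autosomes. No paired analysis was possible because values per library are not in these lists, and leaving out replicates was not run for the same reason. The unknown depth limits all counts.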

Other observations

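Genes of the clathrin coat and its AP2 adaptor, which drive recovery of vesicle membrane after release, held a fasting-enriched region at an end in 5 of the 8 such genes of the companion list (62.5%, against 11.9% of all protein-coding genes). The 5 were Ap2m1 (log-LR 6.67), Cltc (5.12), Ap2s1 (4.81), Cltb (4.71) and Ap2a2 (4.62, the higher of its 2 regions). The highest region of each of the 5 was centred 137 to 539 bp after the nearest annotated start. These 8 genes were grouped after the values were seen, and no test was made.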
